A study of Arabidopsis thaliana with 38 samples.

Results

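COR15A (AT2G42540) and COR15B (AT2G42530) are neighbouring paralogous genes on chromosome 2 of Arabidopsis thaliana, with no gene between them in the RefSeq annotation of assembly TAIR10.1. They were chosen by name as a tandem pair, and they are 2 of the 13513 probe sets that the array annotation assigns to 1 gene. Each has 1 probe set, and both were among the 22746 probe sets tested, so no filter on low values touched them. The comparisons below follow the pair through its non-stress level, its cold response, its share in polysomes and its recovery with the cold shock protein CSP1.

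Both genes encode small hydrophilic proteins of the chloroplast stroma that are largely unfolded in dilute solution and fold against membranes as water is withdrawn. They are known as protectants of chloroplast membranes during freezing and as targets of the CBF (DREB1) transcription factors, the activators that are switched on early in the cold. CSP1 is a cold shock domain protein that binds nucleic acids, and the series was designed to follow the transcriptome, the translatome and the CSP1-bound mRNAs of cold-treated rosettes.

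The 38 arrays (Affymetrix ATH1) came from rosette leaves of Col-0 plants aged 25 days. HF-RPL18 carries a tagged ribosomal protein (35S:HF-RPL18#12-2-4) and CSP1-FH a tagged CSP1 (35S:AtCSP1-FH#11), both transgenes being driven by the 35S promoter and each represented by 1 named line. The third genotype, atcsp1-1, is a mutant of CSP1. The light cycle was 16 h of light and 8 h of dark for all plants. Non-stress plants were kept for 12 h at 23 °C under about 100 uE per second and square metre. Cold plants spent 12 h at 4 °C under about 50 uE, starting 2 h into the light period, so that cold and dimmer light cannot be told apart. Total RNA and polysomal RNA (mRNA carrying 2 or more ribosomes, separated on sucrose gradients) were measured in all 3 lines, on 14 arrays each. RNA recovered with anti-CSP1 beads after cross-linking in 1% formaldehyde (CSP1-IP, 10 arrays) was measured in HF-RPL18 and CSP1-FH only. HF-RPL18 had 3 arrays in each group and the other lines 2, an untransformed Col-0 group was not analysed here, and CSP1 itself, for which the annotation names no probe set, could not be checked in the mutant or the overexpressor.

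All values are RMA log2 values as deposited, and a difference of 1 is a doubling. Levels are compared between arrays for 1 gene at a time, never between the 2 probe sets. An adjusted p is limma's, adjusted over the whole tested array by the Benjamini-Hochberg method, and a change is said to have passed where it was below 0.05. The series design calls the replicates biological, without naming plants or harvests, so p-values measure the spread between these arrays. The leaf genes LHCB4.2 and ATPC1 lay between 10.7 and 12.7 on the total RNA arrays, FMA of guard cells between 4.03 and 4.72, and TRY of trichomes and PYK10 of roots reached at most 6.49 and 6.40. The CSP1-IP arrays were labelled from 3 to 6 ng of RNA. Their GAPDH control probe sets stood apart, differing between the 3′ and 5′ ends by a median of 6.90, against 1.29 in total and 1.47 in polysomal RNA. The actin controls did not, with a median of 3.53, against 3.79 and 3.92.

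In non-stressed rosettes both genes varied between the replicates of a line, and the lines were not separated. COR15A measured 11.16, 9.46 and 9.95 in total RNA of HF-RPL18, 10.79 and 9.56 in CSP1-FH, and 10.98 and 10.06 in atcsp1-1. COR15B measured 10.65, 10.61 and 9.81 in HF-RPL18, 9.76 and 10.32 in CSP1-FH, and 10.30 and 10.62 in atcsp1-1. The arrays of the 3 lines overlapped for each gene.

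**Figure D1:**
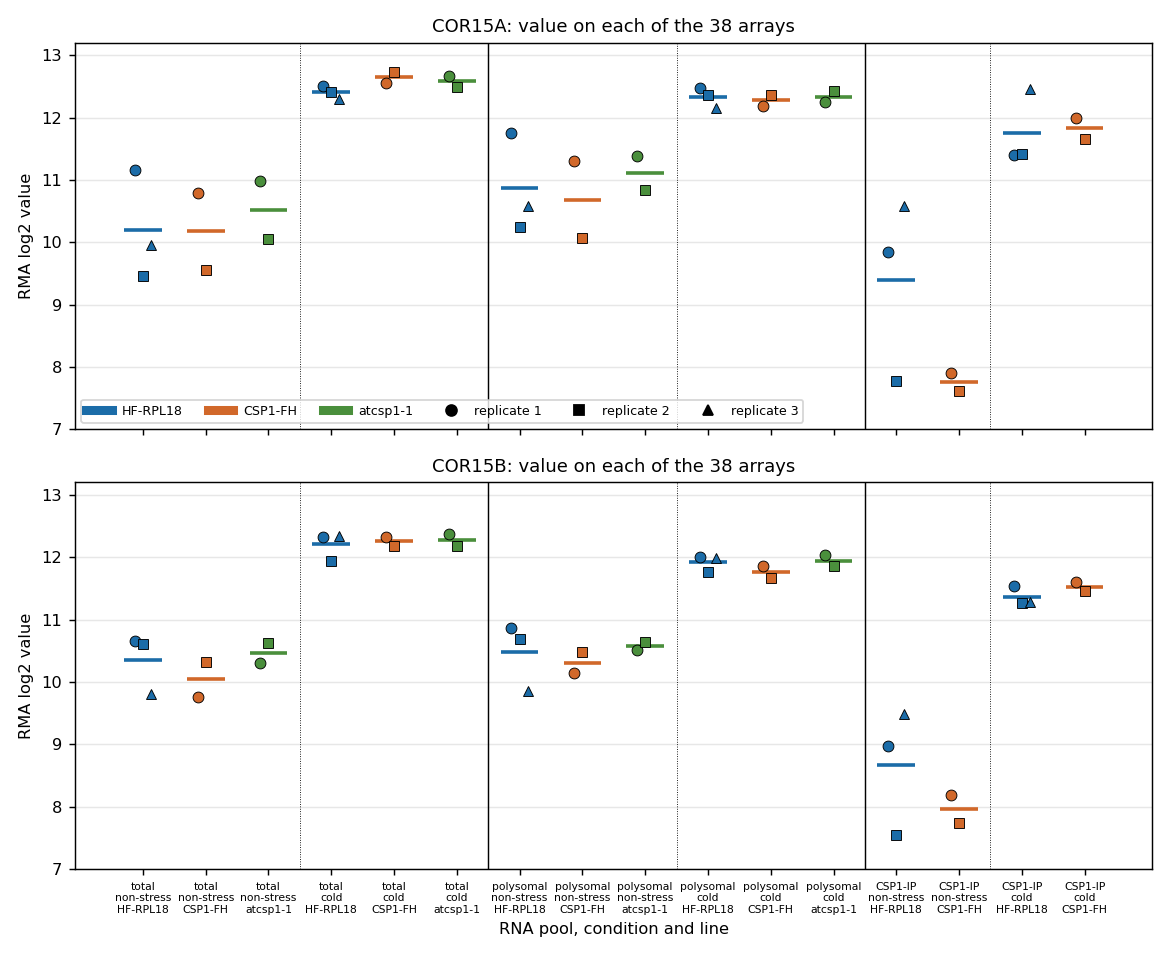
RMA log2 values (y axis) of COR15A (top) and COR15B (bottom) on each of the 38 arrays, grouped by RNA pool, condition and line (x axis). Points are arrays, with a marker for the replicate number, and bars are group means. For both genes every cold array of a pool lies above every non-stress array of that pool, and the non-stress arrays of COR15A spread more widely than its cold arrays.

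The non-stress spread of COR15A followed the replicate number. In total RNA replicate 1 exceeded replicate 2 by 1.70 in HF-RPL18, 1.23 in CSP1-FH and 0.92 in atcsp1-1, and in polysomal RNA by 1.51, 1.24 and 0.55. The same subtraction for COR15B gave 0.05, -0.56 and -0.32 in total RNA and 0.17, -0.32 and -0.14 in polysomal RNA. In these 2 pools COR15A was thus high in replicate 1 of every line, whereas COR15B was not. In non-stress CSP1-IP replicate 1 exceeded replicate 2 for both genes. The differences there were 2.07 in HF-RPL18 and 0.30 in CSP1-FH for COR15A, and 1.43 and 0.46 for COR15B. Averaged over the lines in total RNA, the COR15A difference of 1.29 was exceeded in size by 161 probe sets (0.708% of those tested) and the COR15B difference of -0.28 by 25.2%. Same-numbered total RNA arrays of different lines also deviated together over all probe sets, with correlations from 0.294 to 0.570, although nothing in the labels says what a number marks.

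The spread was narrower in the cold. In cold total RNA COR15A differed between replicates 1 and 2 by 0.09 in HF-RPL18, -0.18 in CSP1-FH and 0.17 in atcsp1-1. The SD within lines of COR15A in total RNA was 0.825 in non-stress and 0.112 in cold, and that of COR15B was 0.404 and 0.181. Only 1.1% of probe sets had a larger non-stress SD than COR15A, against 9.82% for COR15B. Where a paralogue difference is taken within an array, COR15A minus COR15B ran from 0.51 to 1.15 on the 6 non-stress replicate 1 arrays of total and polysomal RNA and from -1.15 to 0.19 on the 6 replicate 2 arrays. The 2 probe sets therefore did not read the same signal, although hybridisation of each to its paralogue's transcript was not tested.

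**Figure D2:**
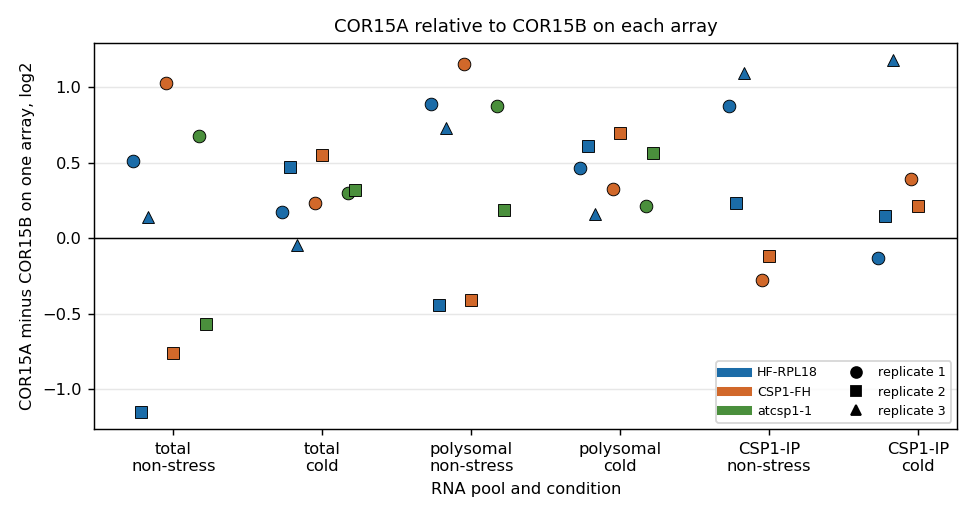
COR15A minus COR15B on each array (y axis, log2) by RNA pool and condition (x axis), coloured by line, with a marker for the replicate number. The zero line has no meaning as a level, since 2 probe sets are subtracted. In non-stress total RNA the replicate 1 arrays (circles) lie at 0.51 or above and the replicate 2 arrays (squares) below 0.

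After 12 h of cold both genes rose in total RNA of all 3 lines. In bulk leaf RNA, more cells expressing a gene and more RNA per cell cannot be told apart. COR15A reached 12.50, 12.41 and 12.30 in HF-RPL18, 12.55 and 12.73 in CSP1-FH, and 12.67 and 12.50 in atcsp1-1. COR15B reached 12.32, 11.94 and 12.35, then 12.32 and 12.18, then 12.37 and 12.17 in the same lines. Each cold array lay above each non-stress array of its line, for both genes. The highest value on these cold arrays lay between 13.8 and 14.0, and whether rises are compressed near the top of the scale was not tested.

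In HF-RPL18 the rise in total RNA was 2.21 ± 0.51 (SE, 3 against 3 arrays, 4.64-fold, adjusted p = 0.00344) for COR15A and 1.85 ± 0.32 (3.60-fold, adjusted p = 0.000151) for COR15B. In that comparison 10.8% of all probe sets passed. Both rises kept passing without any 1 array, at 1.85 to 2.70 for COR15A and 1.57 to 1.99 for COR15B. In CSP1-FH COR15A rose by 2.47 ± 0.62 (5.53-fold, adjusted p = 0.0134) and COR15B by 2.21 ± 0.39 (4.63-fold, adjusted p = 0.000411), where 5.69% of probe sets passed. The COR15A call was lost without cold replicate 1 (2.56, adjusted p = 0.0727), cold replicate 2 (2.38, adjusted p = 0.117) or non-stress replicate 2 (1.85, adjusted p = 0.283), and without non-stress replicate 1 the value was 3.08. In the mutant atcsp1-1 COR15A rose by 2.06 ± 0.62 (4.17-fold, adjusted p = 0.0392) and COR15B by 1.81 ± 0.39 (3.50-fold, adjusted p = 0.00284), with 7.15% of probe sets passing. With 1 array left in an arm the mutant's COR15A rise no longer passed, whichever of the 4 arrays was left out (1.60 to 2.52, adjusted p from 0.0649 to 0.371). Its COR15B rise was lost only without non-stress replicate 1 (1.65, adjusted p = 0.0557).

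**Figure D3:**
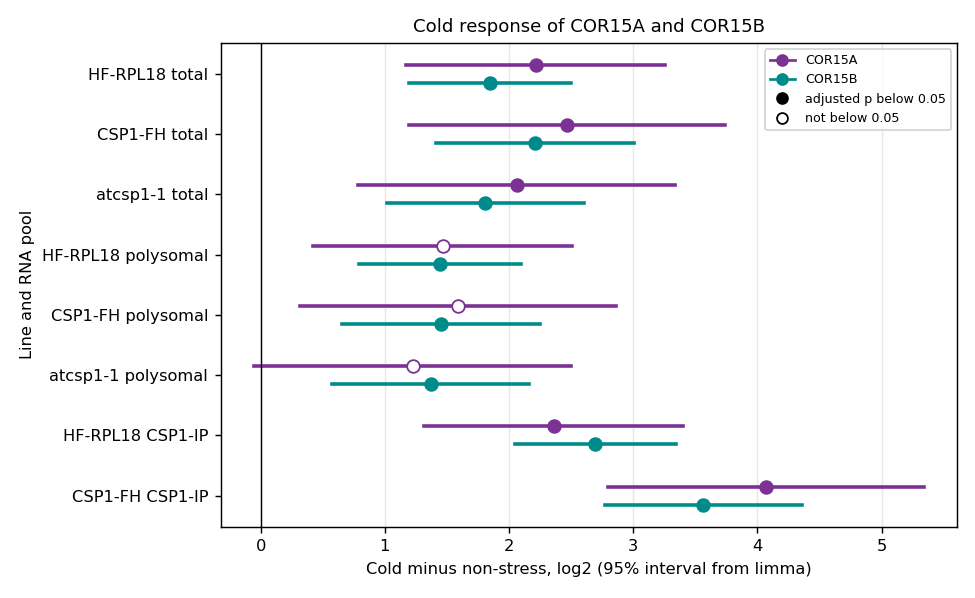
Cold minus non-stress difference (x axis, log2, point with limma's 95% interval) of COR15A and COR15B in each line and RNA pool (y axis). Filled points passed at an adjusted p below 0.05 over all probe sets. The responses in total RNA lie between 1.81 and 2.47, those in polysomal RNA between 1.22 and 1.59, and those in CSP1-IP between 2.36 and 4.07.

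The cold rise was smaller in value on polysomes, where COR15B passed in each line and COR15A in none. Non-stress polysomal RNA gave 11.76, 10.25 and 10.59 for COR15A in HF-RPL18, 11.30 and 10.06 in CSP1-FH, and 11.38 and 10.83 in atcsp1-1, against cold values of 12.48, 12.37 and 12.15, of 12.18 and 12.36, and of 12.24 and 12.42. COR15B gave 10.87, 10.69 and 9.86 without stress in HF-RPL18, 10.15 and 10.47 in CSP1-FH, and 10.51 and 10.65 in atcsp1-1, against 12.01, 11.75 and 11.99, 11.86 and 11.67, and 12.03 and 11.86 in the cold. No cold array overlapped a non-stress array of its line for either gene, again without a share over all probe sets to set beside it.

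COR15B rose on polysomes by 1.44 ± 0.32 in HF-RPL18 (2.72-fold, adjusted p = 0.00274), by 1.45 ± 0.39 in CSP1-FH (2.73-fold, adjusted p = 0.0252) and by 1.37 ± 0.39 in atcsp1-1 (2.58-fold, adjusted p = 0.0300). The share of all probe sets that passed was 9.06%, 4.58% and 6.28% in these lines. The calls in CSP1-FH and atcsp1-1 were each lost without any 1 of their 4 arrays, at 1.29 to 1.61 with adjusted p from 0.0912 to 0.206 in CSP1-FH and at 1.28 to 1.45 with adjusted p from 0.117 to 0.181 in atcsp1-1. The COR15A differences were 1.47 ± 0.51 (adjusted p = 0.0715), 1.59 ± 0.62 (adjusted p = 0.193) and 1.22 ± 0.62 (adjusted p = 0.352). COR15A had the larger replicate spread in non-stress arrays, and the part of that spread in these misses was not tested. Its difference in HF-RPL18 ran from 1.16 to 1.91 over the 6 fits with 1 array left out. It passed in 1 of them, without non-stress replicate 1 (1.91, adjusted p = 0.0280).

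Same-numbered arrays of a line deviated together in total and polysomal RNA, so the replicate number was also fitted as a block. With that replicate block the COR15A difference on HF-RPL18 polysomes passed (1.47, adjusted p = 0.0267). With the block and without the CSP1-IP arrays, a fit chosen after seeing the data, COR15A passed on polysomes of all 3 lines, at adjusted p = 0.00320 in HF-RPL18, 0.0115 in CSP1-FH and 0.0427 in atcsp1-1. That fit called 23.7%, 14.9% and 17.9% of all probe sets in these comparisons. The calls of the pair on polysomes thus differed in the main fit, but the rises of COR15A and COR15B did not differ measurably from each other (below).

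In the CSP1-IP RNA both genes rose in the cold as well, with the largest value in CSP1-FH. No control precipitation is among the arrays, so RNA bound to CSP1 and RNA carried over on the beads cannot be told apart. The change of CSP1-IP minus total RNA with cold passed in neither line (below). COR15A measured 9.85, 7.78 and 10.58 in non-stress HF-RPL18 and 7.91 and 7.61 in CSP1-FH, and in the cold 11.40, 11.41 and 12.46 and then 11.99 and 11.66. COR15B measured 8.97, 7.54 and 9.48 and then 8.19 and 7.73 without stress, and 11.54, 11.27 and 11.28 and then 11.60 and 11.45 in the cold. Cold and non-stress arrays did not overlap in either line, a separation not counted over all probe sets. The low non-stress array of HF-RPL18, replicate 2, was low for both genes.

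In HF-RPL18 CSP1-IP COR15A rose by 2.36 ± 0.51 (5.13-fold, adjusted p = 0.00121) and COR15B by 2.69 ± 0.32 (6.47-fold, adjusted p = 1.2e-06), in a comparison where 28.5% of probe sets passed. Without non-stress replicate 2 the COR15A value was 1.55 (adjusted p = 0.0151), without non-stress replicate 3 it was 2.95 (adjusted p = 0.000319). With the 2 compared groups fitted alone COR15A did not pass (adjusted p = 0.0743), nor with arrays weighted by their own spread (2.04, adjusted p = 0.217). In CSP1-FH CSP1-IP COR15A rose by 4.07 ± 0.62 (16.8-fold, adjusted p = 0.00011) and COR15B by 3.56 ± 0.39 (11.8-fold, adjusted p = 7.73e-07), with 8.65% of probe sets passing. Array weights took the COR15A adjusted p there to 0.0637. These p-values rest on a spread shared with total and polysomal arrays, whose deviations from their group means had a median SD of 0.185 and 0.216, against 0.337 on the CSP1-IP arrays.

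Ordered by group mean, the 16 groups split by condition before anything else. The mean of each of the 8 cold groups lay above that of each of the 8 non-stress groups, for COR15A as for COR15B. Single arrays of COR15A crossed this boundary between pools. Non-stress HF-RPL18 polysomal replicate 1 (11.76) lay above cold CSP1-IP replicates 1 and 2 of HF-RPL18 (11.40 and 11.41) and replicate 2 of CSP1-FH (11.66). Within the cold groups total RNA came first, polysomal RNA second and CSP1-IP last for both genes. The top group was CSP1-FH total RNA for COR15A (12.64 ± 0.126 SD, n = 2) and atcsp1-1 total RNA for COR15B (12.27 ± 0.138 SD, n = 2). The lowest group was non-stress CSP1-IP of CSP1-FH for both, at 7.76 ± 0.209 for COR15A and 7.96 ± 0.322 for COR15B (SD, n = 2). Of the 15 steps between neighbouring groups, 2 were free of overlap between arrays for COR15A and 3 for COR15B. Both genes had such a step from cold CSP1-FH polysomes to cold CSP1-FH CSP1-IP (0.45 and 0.24) and from cold HF-RPL18 CSP1-IP to non-stress atcsp1-1 polysomes (0.65 and 0.78). COR15B had another from non-stress CSP1-FH total RNA to non-stress HF-RPL18 CSP1-IP (1.37). All other neighbours in the order were not separated beyond the spread of their arrays.

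Polysome loading, taken as polysomal minus total RNA, was not called for either gene in any line or condition by limma's fit over all arrays, where the lowest unadjusted p of the 12 tests was 0.195. In non-stress HF-RPL18 COR15A stood at 0.67 (95% interval -0.37 to 1.71, adjusted p = 0.746) and COR15B at 0.12 (-0.53 to 0.77, adjusted p = 0.989), with 1.12% of probe sets passing. In non-stress CSP1-FH the values were 0.51 and 0.27 (adjusted p = 0.941 and 0.965, 0.435% passing). In non-stress atcsp1-1 they were 0.59 and 0.11, where limma called 0% of probe sets although 1038 had an unadjusted p below 0.05. In the cold the values were -0.07 and -0.29 in HF-RPL18 (2.84% passing), -0.37 and -0.49 in CSP1-FH (0.044% passing), and -0.25 and -0.33 in atcsp1-1 (0.0308% passing), for COR15A and COR15B in that order. These group comparisons leave the replicate number out, and its part in the misses was not tested. With the replicate block and without the CSP1-IP arrays, loading was still called for neither gene. The lowest adjusted p was 0.202, for COR15A in non-stress HF-RPL18, where 12.8% of probe sets passed. That fit called no change of loading with cold for the pair either.

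Taken within the 7 same-numbered pairs, both genes sat above total RNA on polysomes without stress and below it in the cold. Non-stress COR15A gave 0.60, 0.79 and 0.63 in HF-RPL18, 0.51 and 0.51 in CSP1-FH, and 0.40 and 0.77 in atcsp1-1, a mean of 0.60 ± 0.145 (SD, n = 7 pairs). In the cold its pairs ran from -0.43 to -0.02 with a mean of -0.21 ± 0.174. COR15B gave 0.22, 0.09 and 0.05, then 0.38 and 0.15, then 0.20 and 0.02 without stress, a mean of 0.16 ± 0.124. Its cold pairs ran from -0.52 to -0.19 with a mean of -0.36 ± 0.107. Every one of the 7 pairs was above 0 without stress and below 0 in the cold, for each gene.

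**Figure D4:**
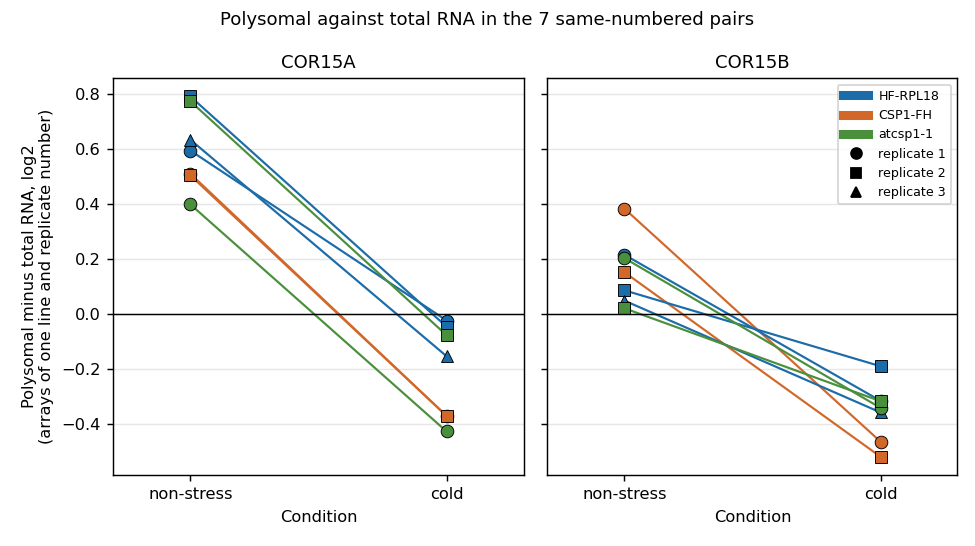
Polysomal minus total RNA (y axis, log2) of COR15A (left) and COR15B (right) for the 7 pairs of arrays of one line and replicate number, in non-stress and cold (x axis). Lines join the same line and number across conditions. All 7 lines start above 0 and end below 0 in both panels, from 0.40 to 0.79 down to -0.43 to -0.02 for COR15A and from 0.02 to 0.38 down to -0.52 to -0.19 for COR15B.

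From non-stress to cold the pair values of COR15A moved by -0.81 ± 0.0906 (range -0.88 to -0.62) and those of COR15B by -0.52 ± 0.199 (range -0.85 to -0.28). Each of the 6 exact 2-sided sign-change tests, over 128 patterns, gave p = 0.0156, the smallest that 7 pairs allow. The tests of the change are no separate support. With all 7 pairs above 0 without stress and below 0 in the cold, every change had to be negative. All 6 tests were chosen after seeing the data, and the pairs are not fully independent, since same-numbered arrays of different lines also deviated together. As background, 12.7% of all probe sets were above 0 in all 7 non-stress pairs, 15.7% were below 0 in all 7 cold pairs, and 2.5% moved down in all 7. Only 6 probe sets (0.0264%) met both of the first conditions, among them COR15A, COR15B, RD2 and AT2G25990, names read after their values were seen, and 2 more without a name in the annotation. The mean fall with cold was larger in 0.0967% of probe sets for COR15A and in 0.708% for COR15B.

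The fit over all arrays did not call the same change in any line. For COR15A it gave -0.75 ± 0.72 in HF-RPL18, -0.88 ± 0.88 in CSP1-FH and -0.84 ± 0.88 in atcsp1-1, and for COR15B -0.40 ± 0.45, -0.76 ± 0.55 and -0.44 ± 0.55 (SE, all adjusted p = 1.00 after rounding). It called 0% of all probe sets in each line, with 123, 55 and 46 at an unadjusted p below 0.05. After loess normalisation the COR15A pairs stayed above 0 without stress (7 of 7, mean 0.52), whereas COR15B had 5 of 7 above 0 (mean 0.09, exact p = 0.109), and both stayed below 0 in all 7 cold pairs (means -0.29 and -0.43).

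Relative to the other probe sets of each array, both genes had lower values in CSP1-IP than in total RNA in all 4 comparisons. The difference passed in 3 of 4 for COR15B and in 1 of 4 for COR15A, where 27.6% to 55.7% of all probe sets passed. The 2 genes did not differ measurably from each other in it (below). The lowest values were found without stress. In non-stress CSP1-FH COR15A was lower by -2.41 ± 0.62 (5.33-fold, adjusted p = 0.00355) and COR15B by -2.08 ± 0.39 (4.23-fold, adjusted p = 0.000157), with 36.1% of probe sets passing and no overlap between arrays. In non-stress HF-RPL18 COR15B was lower by -1.69 ± 0.32 (3.23-fold, adjusted p = 0.00015), with 31.8% passing. COR15A there was at -0.79 ± 0.51 (adjusted p = 0.243), its arrays overlapped, and its value rested on single arrays: it was 0.022 without CSP1-IP replicate 2 and -1.38 (adjusted p = 0.0452) without CSP1-IP replicate 3. Without total RNA replicate 1 the CSP1-FH value of COR15A was -1.80 (adjusted p = 0.0823), and without total RNA replicate 2 it was -3.03.

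In the cold the shortfall of COR15B in HF-RPL18 was -0.84 ± 0.32 (1.79-fold, adjusted p = 0.0265), where 55.7% of all probe sets passed, so that passing was more common than not. It did not pass without total RNA replicate 1 (-0.78, adjusted p = 0.0744) or 3 (-0.77, adjusted p = 0.0764), or without CSP1-IP replicate 2 (-0.80, adjusted p = 0.0610) or 3 (-0.80, adjusted p = 0.0658). COR15A in cold HF-RPL18 was at -0.65 ± 0.51 (adjusted p = 0.279). In cold CSP1-FH COR15A was at -0.82 ± 0.62 (adjusted p = 0.333) and COR15B at -0.73 ± 0.39 (adjusted p = 0.161), with 27.6% passing.

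The CSP1-IP arrays also differed from total RNA in scale. Their SD over probe sets was 1.83 to 2.14, against 2.27 to 2.32 in total RNA. The median probe set was 0.126 to 0.203 higher in CSP1-IP than in total RNA across the 4 comparisons, a shift that loess normalisation removed. Removing that shift alone would lower CSP1-IP minus total RNA, whereas loess raised every value of the pair. After loess the non-stress shortfalls of COR15B were -1.14 (adjusted p = 0.00335) in HF-RPL18 and -1.24 (adjusted p = 0.0103) in CSP1-FH and still passed. COR15A in non-stress CSP1-FH was then at -1.56 (adjusted p = 0.0573). The cold shortfall of COR15B in HF-RPL18 shrank to -0.043 (adjusted p = 0.929), and COR15A changed sign there, from -0.65 to 0.15. The 3′ to 5′ difference of the GAPDH controls, 5.02 to 7.60 on CSP1-IP arrays, also set this pool apart. That of the actin controls did not (2.78 to 4.35, against 3.31 to 4.19 in total RNA). The part of the GAPDH difference in the shortfalls was not tested.

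**Figure D5:**
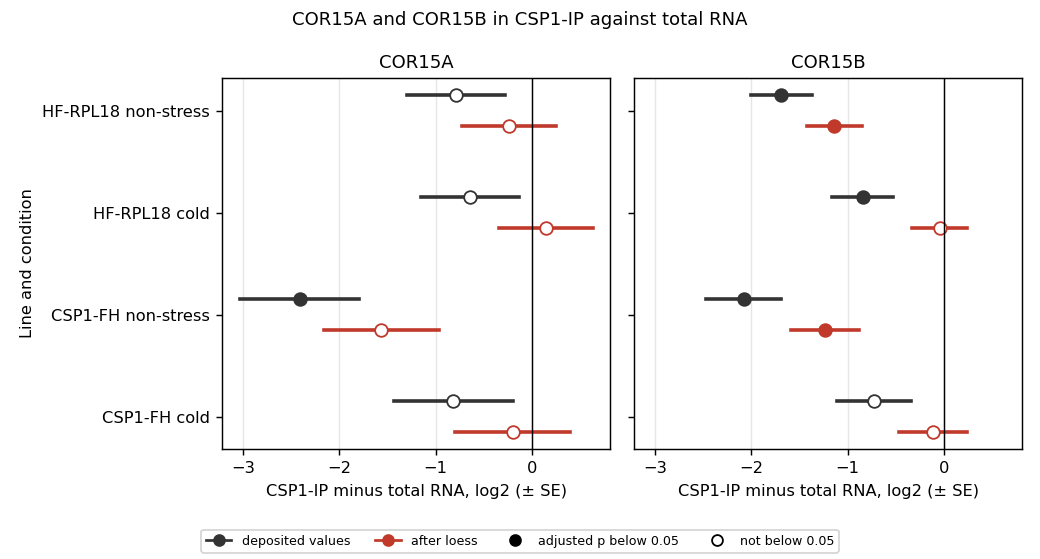
CSP1-IP minus total RNA (x axis, log2, point ± SE) of COR15A (left) and COR15B (right) by line and condition (y axis), from the deposited values and after loess normalisation. Filled points passed at an adjusted p below 0.05. Loess moved all 8 values towards higher CSP1-IP, and the non-stress values of COR15B passed under both scalings.

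The change of CSP1-IP minus total RNA with cold did not pass for either gene in either line. In CSP1-FH the change was 1.60 ± 0.88 for COR15A (adjusted p = 0.600) and 1.35 ± 0.55 for COR15B (unadjusted p = 0.0202, adjusted p = 0.419), where 0.101% of probe sets passed. In HF-RPL18 it was 0.14 ± 0.72 for COR15A and 0.85 ± 0.45 for COR15B (adjusted p = 0.930 and 0.262), where 4.48% passed. The COR15A value in HF-RPL18 had no stable direction: it was -0.26 with array weights and ran from -0.67 without non-stress CSP1-IP replicate 2 to 0.73 without non-stress CSP1-IP replicate 3. It was also negative without non-stress total RNA replicate 1 (-0.34) or cold CSP1-IP replicate 3 (-0.21). No difference between the lines passed either. CSP1-FH minus HF-RPL18 was -1.62 for COR15A without stress (95% interval -3.27 to 0.02, adjusted p = 0.638) and -0.39 for COR15B, with 0.0264% of probe sets passing. In the cold it was -0.17 and 0.12, with 0.0572% passing. Over the 18 tests of a difference between differences for the pair, limma called 0 and 1 had an unadjusted p below 0.05.

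COR15A and COR15B were then set against each other, as the difference of their changes in the same arrays. Averaged over lines, the cold rise in total RNA was 2.25 for COR15A and 1.96 for COR15B, which left 0.29 ± 0.39 (SE, 7 against 7 arrays, exact permutation p = 0.436). On polysomes the rises were 1.43 and 1.42, a difference of 0.01 ± 0.32 (exact permutation p = 0.992). In CSP1-IP they were 3.21 and 3.13, a difference of 0.08 ± 0.31 (5 against 5 arrays, exact permutation p = 0.800). Polysome loading differed by 0.42 ± 0.49 without stress and by 0.14 ± 0.12 in the cold (exact permutation p = 0.342 and 0.214). Recovery in CSP1-IP differed by 0.28 ± 0.50 and 0.05 ± 0.28 (exact permutation p = 0.567 and 0.900). All 7 adjusted p-values were 0.992, while the smallest p the arrangements allowed was 0.00278 with 3 lines and 0.0167 with 2.

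Within same-numbered pairs the non-stress polysome loading of COR15A exceeded that of COR15B in 7 of 7 pairs (exact paired p = 0.0156) and the cold loading in 6 of 7 (exact paired p = 0.0313). After adjustment over the 7 comparisons both stood at 0.109. The smallest paired p that 7 pairs allow becomes 0.109 where 1 comparison alone reaches it, so in this family the first result could not have passed on its own. The paralogue contrast in the cold response depended on the replicate number. In total RNA the COR15A rise minus the COR15B rise was -0.33, -0.79 and -0.38 in replicate 1 of HF-RPL18, CSP1-FH and atcsp1-1, and 1.62, 1.31 and 0.89 in replicate 2, with -0.19 in replicate 3 of HF-RPL18. On polysomes it ran from -0.83 to -0.42 in replicate 1 and from 0.37 to 1.11 in replicate 2. COR15B was the more induced member in each replicate 1 and COR15A in each replicate 2 of these pools. The near-equal means therefore combine replicates that point opposite ways, and the difference between replicate numbers was not tested. In CSP1-IP the signs were mixed, with -1.01 and 0.67 in replicate 1 and -0.08 and 0.33 in replicate 2 of HF-RPL18 and CSP1-FH.

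The mutant, the CSP1 overexpressor and HF-RPL18 did not differ measurably in either gene. In non-stress total RNA the line means spanned 0.35 for COR15A and 0.42 for COR15B, and in cold total RNA 0.24 and 0.07, and limma's F test over the lines called 0.00879% of probe sets in either condition. On polysomes they spanned 0.42 and 0.27 without stress (0.022% called) and 0.06 and 0.18 in the cold (0.00879% called). The pair's adjusted p was 1.00 after rounding in all of these. For atcsp1-1 minus CSP1-FH in non-stress total RNA the 95% interval was -0.93 to 1.62 for COR15A and -0.37 to 1.22 for COR15B, so that differences of a doubling between lines were not resolved. The cold response spanned 0.41 and 0.40 among lines in total RNA and 0.37 and 0.08 on polysomes, and 0% of probe sets were called in either pool, with 25 and 96 at an unadjusted p below 0.05. The interval for atcsp1-1 minus CSP1-FH in the total RNA cold response was -2.21 to 1.39 for COR15A and -1.53 to 0.72 for COR15B.

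Of 36 other cold acclimation genes listed, 5 had a named probe set: the dehydrins LTI30 and COR47, the zinc finger gene STZ, and COR27 and COR28. LTI30, COR47, STZ and COR27 rose in all 8 cold comparisons, and COR28, at 0.70 to 2.11 with adjusted p from 0.0890, passed in none. The list's median rise was 2.65 to 3.36, while the median of all probe sets lay between -0.06 and 0.05. In HF-RPL18 total RNA LTI30 rose by 8.11 and COR47 by 4.57, against 2.21 and 1.85 for COR15A and COR15B, and non-stress levels differed between these probe sets as well. In polysomal minus total RNA limma called 0 of the 5 in each of the 6 comparisons, and 3 of the 30 tests had an unadjusted p below 0.05. In CSP1-IP minus total RNA without stress COR47 was at 0.22 in HF-RPL18 and -0.03 in CSP1-FH, LTI30 at 0.64 and 0.01, and STZ was higher by 2.50 and 1.90 (adjusted p = 0.00141 and 0.0377), while COR15B was lower by -1.69 and -2.08. In cold HF-RPL18 COR47 (-0.71, adjusted p = 0.0468) and LTI30 (-1.21, adjusted p = 0.0250) were lower and STZ was higher (1.84, adjusted p = 0.00952). In cold CSP1-FH COR47 was lower (-1.02, adjusted p = 0.0391), while LTI30 at -1.24 (adjusted p = 0.0925) and STZ at 1.55 (adjusted p = 0.103) did not pass.

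Each paralogue was the other's nearest probe set. Over the 16 group means, each gene centred on its own mean, COR15A and COR15B differed by a root mean square of 0.237, for each the smallest difference among 22745 other tested probe sets. After COR15B, the named genes nearest to COR15A were SERPIN1, a serine protease inhibitor (0.396), TIL, a temperature-induced lipocalin (0.407), TET3, a tetraspanin (0.439), and AT5G15950 (0.448). After COR15A, those nearest to COR15B were AT5G62350 (0.374), TIL (0.375), SERPIN1 (0.384) and TET3 (0.398).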

How the data were processed

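The authors deposited log2 values per ATH1 probe set, made with RMA per the submitters' processing notes. Neither the version of RMA nor the set of arrays it was run on is given in the sources used here. Of 22810 probe sets, 64 controls were left out. Group means of 16 groups were fitted over all 38 arrays with limma 3.58.1 in R 4.3.3 (lmFit, eBayes, 22 residual degrees of freedom, Benjamini-Hochberg over 22746 probe sets, threshold 0.05), which was tested on simulated data. The paralogues were compared by exact permutation of arrays between groups within lines.

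Named were COR15A, COR15B, the 5 single-gene probe sets nearest to each over the 16 group means, and the measured genes of the cold acclimation list. The members and lists were chosen with earlier results of these data known. Of the marker list, 2 of 8 leaf, 1 of 3 guard cell, 1 of 2 trichome, 1 of 1 root, 0 of 1 phloem and 0 of 3 inflorescence genes had a named probe set.

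Replicate numbers come from the sample titles. Over all probe sets, same-numbered polysomal and total arrays of a line deviated together in all 14 array pairs (r from 0.467 to 0.725), so they were treated as paired. In CSP1-FH and atcsp1-1, with 2 arrays in each group, both pairs of a comparison necessarily give the same r. The 14 values are therefore not 14 separate checks. Same-numbered CSP1-IP and total arrays deviated together only weakly (r from 0.069 to 0.233 in 10 pairs). The lowest r fell below the minimum of 0.1 used for pairing, so these arrays were not treated as paired. Alternatives were other sets of arrays in the fit, array weights, loess normalisation, a filter on dim probe sets (mean below 5), trended and robust eBayes, the replicate block, CSP1-IP against polysomal RNA, and each array or line left out. Arrays have no sequencing depth, so their number limits the precision.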

Additional observations from a re-analysis of the deposited data

Results flagged for a closer look

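The difference between polysomal and total RNA changed with cold for both genes when taken within the 7 same-numbered pairs. It moved by -0.81 for COR15A and by -0.52 for COR15B, downwards in 7 of 7 pairs for each (exact sign-change p = 0.0156, the smallest that 7 pairs allow). That test was chosen after seeing the data, on pairs that are not fully independent. Its outcome follows from all pairs lying above 0 without stress and below 0 in the cold. The same change was not called by limma in any line, where the adjusted p-values were 1.00 after rounding. Over all probe sets 2.5% moved down in all 7 pairs.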

How the results depend on the processing

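For the 75 results on the pair, 1058 alternative values were computed, of which 1016 kept their side of the threshold and 0 reversed a called direction. A value that passed in neither fit could change sign and still count among the 1016. CSP1-IP minus total RNA of COR15A in cold HF-RPL18 did so after loess (from -0.65 to 0.15). The cold rise of COR15A on HF-RPL18 polysomes (1.47) came to pass without the CSP1-IP arrays (adjusted p = 0.0201), with array weights (1.54, adjusted p = 0.0166), after loess (1.55, adjusted p = 0.0426), with dim probe sets left out (adjusted p = 0.0375), with the replicate block (adjusted p = 0.0267), with the block shared across lines (adjusted p = 0.0247) and with the block without CSP1-IP arrays (adjusted p = 0.00320). COR15A on CSP1-FH polysomes (1.59) passed with array weights (adjusted p = 0.0477) and the last of these (adjusted p = 0.0115), as did COR15A on atcsp1-1 polysomes with the latter (1.22, adjusted p = 0.0427). The replicate block changed no other call of the pair. The cold rise of COR15A in CSP1-IP was lost in HF-RPL18 with the compared groups alone (2.36, adjusted p = 0.0743) and array weights (2.04, adjusted p = 0.217), and in CSP1-FH with array weights (4.07, adjusted p = 0.0637). CSP1-IP minus total RNA of COR15B in cold HF-RPL18 was lost with array weights (-0.86, adjusted p = 0.156), after loess (-0.043) and against polysomal RNA (-0.56, adjusted p = 0.148), that of COR15A in non-stress CSP1-FH after loess (-1.56), and that of COR15A in non-stress HF-RPL18 passed against polysomal RNA (-1.46, adjusted p = 0.0283). The non-stress pairs of COR15B were lost after loess (0.092). With 1 array left out, COR15A ranged over 1.85 to 3.08 in CSP1-FH and 1.60 to 2.52 in atcsp1-1 total RNA and 1.16 to 1.91 on HF-RPL18 polysomes, and over -3.03 to -1.80 and -1.38 to 0.022 in non-stress CSP1-IP minus total RNA of CSP1-FH and HF-RPL18. COR15B ranged over 1.65 to 1.97 in atcsp1-1 total RNA, 1.29 to 1.61 and 1.28 to 1.45 on CSP1-FH and atcsp1-1 polysomes, and -0.97 to -0.77 in cold HF-RPL18 CSP1-IP minus total RNA. An arm left with 1 array is assumed to vary like the other groups. The causes were not tested. Counts over all probe sets moved in both directions. Cold calls in HF-RPL18, CSP1-FH and atcsp1-1 total RNA (2447, 1295 and 1627) reached 5538, 4142 and 4781 in the most permissive alternative and fell to 1687, 610 and 788 at the lowest with 1 array left out, and those on polysomes (2061, 1042 and 1429) reached 5387, 3397 and 4071 and fell to 1454, 452 and 709. In CSP1-IP they fell from 6491 to 634 in HF-RPL18 and from 1968 to 104 in CSP1-FH in the strictest alternative. Polysomal minus total RNA calls without stress (254, 99 and 0) reached 2918, 2019 and 478 and fell to 27, 0 and 0 with 1 array left out, and in the cold (645, 10 and 7) they reached 4849, 1141 and 850 and fell to 159, 0 and 0. CSP1-IP minus total RNA calls fell from 12672 to 5685 in cold HF-RPL18, from 8222 to 4006 in non-stress CSP1-FH and from 6267 to 3358 in cold CSP1-FH. Their change with cold (1020 in HF-RPL18 and 23 in CSP1-FH) fell to 13 and 2 and reached 3363 and 439, and their difference between the lines (6 without stress and 13 in the cold) fell to 0 and 0 and reached 515 and 964. Calls among lines stayed between 0 and 9 except in the block fit without the CSP1-IP arrays. There they reached 26 without stress and 47 in the cold in total RNA, and 42 and 85 on polysomes. Neither COR15A nor COR15B was among them.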
